A study of Bos taurus with 147 samples.

Results

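Bovine bone marrow stromal cells were compared between treated and control cells within the first day of a treatment, on arrays that pair a treated with a control sample of the same time. The arrays were chosen by their labels alone: the 4 arrays that set treated against control cells at 6 h and at 24 h, with the 2 arrays of the same kind at 0 h as the baseline. These 6 arrays are part of 15 arrays of stromal cells and of 147 arrays in the series, most of which measured longissimus muscle. At each time replicate 1 carried the treated RNA in the Cy5 dye and the control RNA in Cy3, and replicate 2 carried them the other way round. The agent, its dose, the culture medium, the animals and the number of cultures are not given in the sources used here, and neither is whether the 2 arrays of a time shared their RNA extracts. The p-values therefore measure only the spread between arrays, which may be technical. The labels likewise do not say what separated treated from control cells at 0 h.

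Bone marrow stromal cells are adherent cells of the marrow that support blood formation and contain progenitors able to form bone, cartilage and fat in culture. They secrete a collagen-rich matrix, carry binding proteins for insulin-like growth factors, and when spread on plastic build stress fibres of actin, myosin and tropomyosin. Smooth muscle alpha-actin is a usual mark of a contractile state of such cells, and the enzymes of glycolysis supply much of their energy. The array was built from muscle and subcutaneous fat cDNA, so that it covers contractile, metabolic and matrix genes well and surface markers poorly.

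Each value below is a log2 ratio of treated over control after centring each array on its median, so that 1 unit is a doubling and a negative value means a lower level in treated cells. Ratios carry no levels: whether the defining markers of stromal cells were present could not be checked, and only their ratios are given. The direction of the ratios is taken as likely. It rests on the dyes in the labels and on Cy5 over Cy3 as the sense of the deposited ratio, which no source used here states for these arrays. In the other array table of the series, where the younger stage of fetal muscle was in Cy5, the median of 29 sarcomere genes was below 0 on 9 of 9 arrays (lowest -0.984, highest -0.34), the sign that Cy5 over Cy3 gives for genes that accumulate as muscle matures. Only arrays with the younger stage in Cy5 entered that check. A dye deviation of the sarcomere genes thus cannot be told apart there from the sense of the ratio. A check on a comparison that both tables hold was uninformative (r = 0.0137 across 962 genes, which are not independent replicates).

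Of 19200 array elements, 14501 to 17194 gave a usable ratio on the 6 arrays. All elements annotated to a single gene were combined by their mean, and 7252 features (719 named genes and 6533 single elements) had values on all 6 arrays and on at least 10 of 12 treated versus control arrays of the time course, which also covers 3 d, 6 d and 14 d. A feature is called below when the adjusted p of a limma fit over those 12 arrays was under 0.05. The 2 arrays of a time shared little: over the named genes the treated over control ratios of replicate 1 and replicate 2 correlated at -0.223 at 0 h, -0.096 at 6 h and -0.0286 at 24 h, descriptions across genes of arrays that share a print run. A deviation that went with the dye recurred at every time (r of 0.279 to 0.596 between times), and the fit holds a term for it. With the dye deviation of the other times removed, the same correlations were -0.0119, 0.0402 and 0.259. The 2 arrays had the same sign for 44.8% of the named genes at 0 h, 45.2% at 6 h and 50.8% at 24 h.

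**Figure D1:**
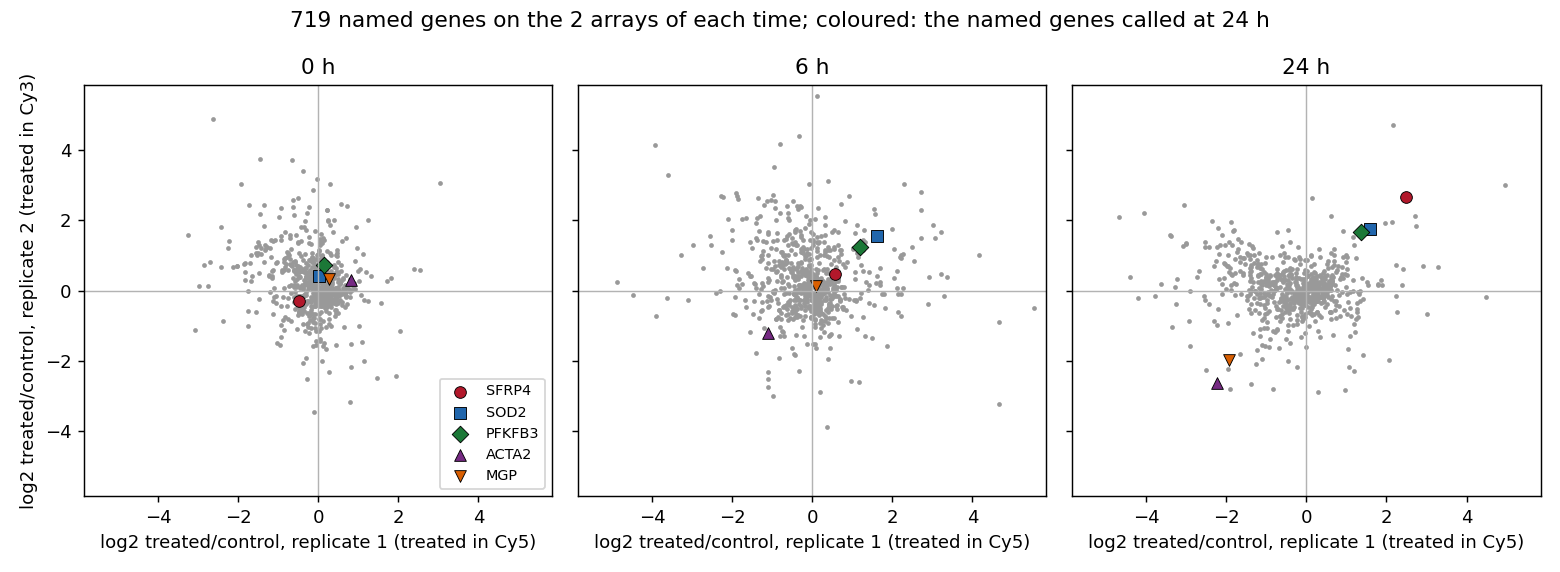
Log2 ratio of treated over control on replicate 1 (horizontal axis, treated in Cy5) and on replicate 2 (vertical axis, treated in Cy3) at 0 h, 6 h and 24 h. Grey points are the 719 named genes and coloured symbols are SFRP4, SOD2, PFKFB3, ACTA2 and MGP, which leave the cloud along the diagonal at 24 h and lie near its centre at 0 h.

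At 24 h the named genes that differed beyond the spread between arrays were SFRP4, SOD2 and PFKFB3, which were higher in treated cells, and ACTA2 and MGP, which were lower. They were 5 of 10 features called (0.138% of 7252), 5 higher and 5 lower, with 672 features (9.27%) under an unadjusted p of 0.05. At 0 h no feature was called (0% of 7252; 432 features, 5.96%, had an unadjusted p under 0.05), and the smallest adjusted p was 0.25. The direction of all 5 genes held in every one of 25 alternative settings, but their calls did not. Leaving out any array of 0 h, 24 h, 3 d, 6 d or 14 d left no feature called at 24 h, and leaving out either array of 6 h left 3, with ACTA2 as the only named gene.

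ACTA2, the smooth muscle alpha-actin of stress fibres, stood at 0.83 and 0.32 at 0 h, at -1.12 and -1.22 at 6 h and at -2.24 and -2.64 at 24 h. Treated cells were thus above control cells on both arrays of 0 h and below them on all 4 later arrays. Its 24 h mean of -2.44 ± 0.18 (SE, n = 2 arrays, adjusted p = 0.0197) is a treated over control ratio of 0.184. The mean of -1.17 at 6 h was not called (adjusted p = 0.1). All 4 elements of the gene were below 0 at 6 h and all 4 at 24 h. ACTA2 was also the 1 feature called (0.0138% of 7252, with 7.97% under an unadjusted p of 0.05) when the 0 h ratio was subtracted from the 24 h ratio, with a difference of -3.01 ± 0.25 (adjusted p = 0.049). That call was lost without any 1 of the 12 arrays.

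MGP, which encodes matrix Gla protein, a secreted inhibitor of mineral deposition, stood at 0.26 and 0.32 at 0 h, at 0.08 and 0.14 at 6 h and at -1.93 and -1.99 at 24 h. Its arrays lay close together at each time, and those of 24 h alone were below 0 among these 6. The mean at 24 h was -1.96 ± 0.21 (adjusted p = 0.0457), a ratio of 0.257. All 9 elements of the gene with both 24 h arrays were below 0.

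SFRP4 encodes a secreted Frizzled-related protein, which binds Wnt ligands outside the cell. It stood at -0.48 and -0.31 at 0 h, at 0.57 and 0.48 at 6 h and at 2.48 and 2.67 at 24 h. Treated cells were thus above control cells on all 4 later arrays and below them on both arrays of 0 h. The 24 h mean of 2.57 ± 0.28 (adjusted p = 0.0457) is a 5.95-fold higher level.

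SOD2, the manganese superoxide dismutase of mitochondria, stood at 0.01 and 0.41 at 0 h, at 1.61 and 1.55 at 6 h and at 1.59 and 1.76 at 24 h, so that the arrays of 6 h and 24 h overlapped. Its adjusted p was 0.0527 at 6 h, just outside the threshold, and 0.0457 at 24 h. PFKFB3 makes fructose 2,6-bisphosphate, an activator of phosphofructokinase and so of glycolysis. It stood at 0.15 and 0.73 at 0 h, at 1.19 and 1.23 at 6 h (adjusted p = 0.0945) and at 1.36 and 1.68 at 24 h (mean 1.52 ± 0.17, adjusted p = 0.0457, a 2.86-fold higher level). For PFKFB3 one array of 0 h thus lay part of the way to the 6 h values.

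The 5 other features called at 24 h have no gene name in the annotation used here. Elements 869 and 870, which lie next to each other, as duplicate prints of 1 sequence do on this array, stood at means of -2.29 and -2.08 at 24 h and of -1.99 and -2.23 at 6 h. Element 870 was 1 of the 2 features called at 6 h (0.0276% of 7252). The other was element 1092 (1 feature called in each direction, 0.0138% each), at 4.15 and 4.91 at 6 h and at 0.42 and -0.68 at 24 h, so that it was high on the 2 arrays of 6 h alone. Its neighbour on the array did not have the values needed to enter the fit. Elements 6447 and 7544 were higher at 24 h (1.59 ± 0.16 and 2.64 ± 0.31) and element 18535 was lower (-1.95 ± 0.23). Their neighbours 6448, 7543 and 18536 had 24 h means of 1.14, 2.49 and -1.96, each on the same side of 0 and none of them called.

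A further 15 named genes had the largest moderated t at 24 h among those with the same sign on both arrays. None of them passed the adjusted threshold. Those above 0 included IGFBP5, a binding protein for insulin-like growth factors held in the matrix, at 2.14 and 1.96 (adjusted p = 0.0581), with 15 of 15 elements that had both arrays above 0. The pyruvate carboxylase gene PC, whose enzyme feeds oxaloacetate into the citric acid cycle, stood at 1.97 and 1.93 (adjusted p = 0.0571). RGMB, a co-receptor for bone morphogenetic proteins, stood at 1.29 and 1.71, and PCYOX1, an oxidase that breaks down prenylated cysteine, at 1.16 and 1.53 (adjusted p = 0.0571 each). VAMP1, a protein of synaptic vesicles, had the highest mean of all these (4.97 and 3.02), but 1 of its 2 elements alone had both arrays, and the ratio at 6 h was below 0 on both arrays (-0.85 and -0.76).

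Those below 0 included CRYAB, a small heat shock protein that binds desmin and actin filaments, at -0.06 and -0.36 at 0 h, -0.82 and -1.04 at 6 h and -1.23 and -1.68 at 24 h (adjusted p = 0.0606). The skeletal alpha-actin gene ACTA1 stood at -1.18 and -0.63 (adjusted p = 0.0927), with 133 of 144 elements below 0. Actin genes are alike in coding sequence, and how far a printed fragment of one bound cDNA of another cannot be told apart here. TIMP3, a matrix-bound inhibitor of metalloproteinases, stood at -1.39 and -2.66, IGFALS, which carries insulin-like growth factor complexes in plasma, at -2.50 and -2.25, and FABP4, the fatty acid carrier of adipocytes, at -0.99 and -0.63. For CRABP2, CAVIN1 and NUMB replicate 1 of 24 h lay far below replicate 2 (-2.30 and -0.86, -2.11 and -0.11, and -2.42 and -0.37). The pairs of CAVIN1 and NUMB were also wide apart at 0 h and 6 h. For IGFALS 1 of 4 elements had both arrays of 24 h, and for NUMB 1 of 2. The 4 elements of CRABP2 were split at 24 h, with 2 above 0 and 2 below.

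**Figure D2:**
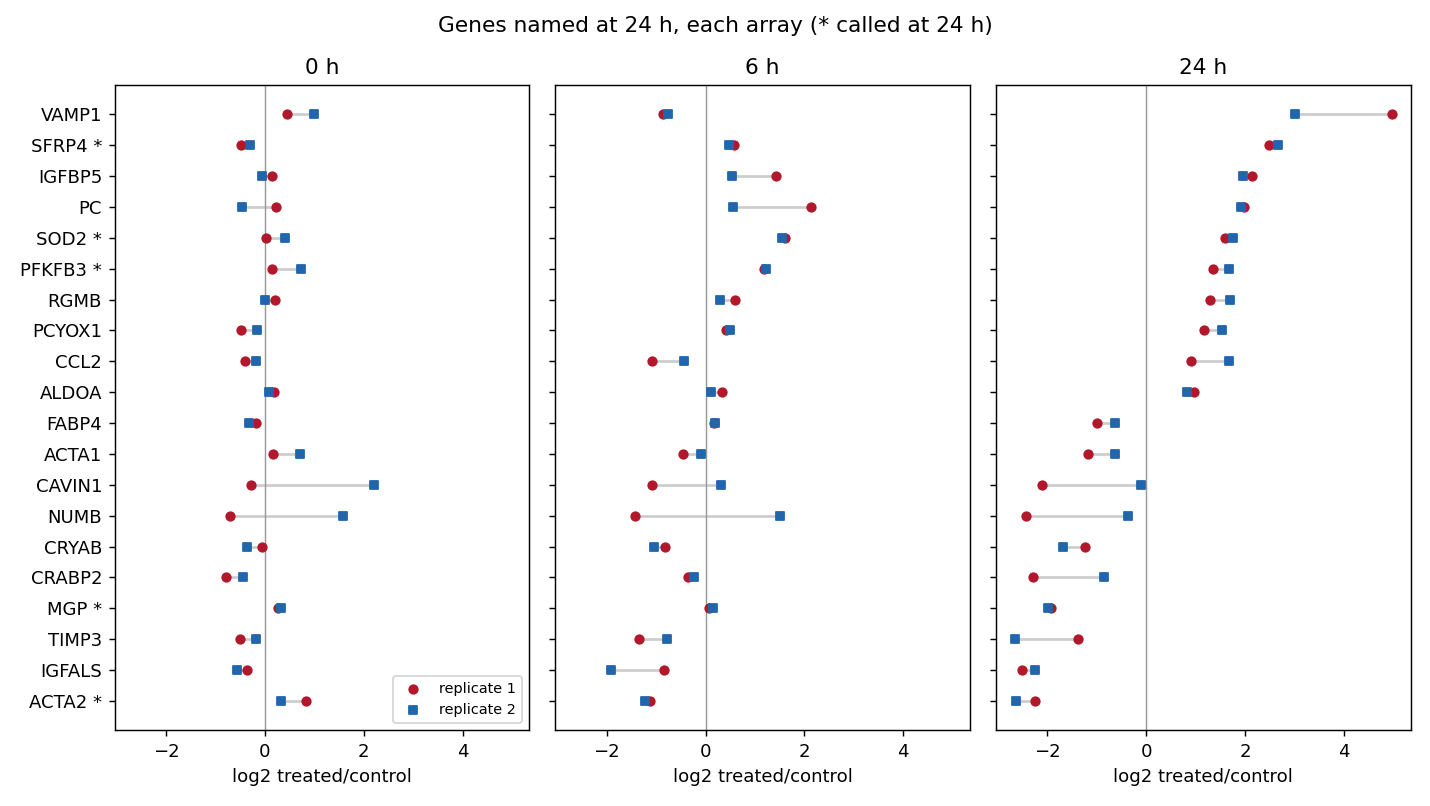
Log2 ratio of treated over control (horizontal axis) for the 20 genes named at 24 h (vertical axis, ordered by their 24 h mean), with 1 point for each array at 0 h, 6 h and 24 h and a line joining the pair. The asterisk marks the 5 genes called at 24 h; SFRP4, SOD2, PFKFB3 and ACTA2 already lay on their 24 h side of 0 at 6 h, and MGP did not.

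At 6 h no named gene was called, although 1130 features (15.6% of 7252) had an unadjusted p under 0.05. Of the other 8 genes with the largest moderated t above 0 beside SOD2 and PFKFB3, PC alone (2.13 and 0.56) was also among those of 24 h. DLK1, a membrane protein of progenitor cells that restrains fat formation, stood at -1.56 and 1.23 at 0 h, at 2.28 and 3.04 at 6 h (mean 2.66 ± 0.48, adjusted p = 0.142) and at -1.40 and 1.01 at 24 h. HAS2, the main synthase of hyaluronan in stromal cells, stood at 1.27 and 1.44 at 6 h, and at -0.60 and -0.20 at 24 h. CFD, a complement protease secreted by adipocytes, stood at 1.28 and 1.72, CHTOP at 2.23 and 1.01, PRCC at 2.71 and 2.80 and MINDY1 at 0.67 and 0.84. These 6 genes had 24 h means below 0, from -1.37 for PRCC to -0.19 for MINDY1. COX5A, a subunit of cytochrome c oxidase, was above 0 at both times (1.26 and 0.56 at 6 h, 0.86 and 0.38 at 24 h). For DLK1 and PC 1 of 4 elements had both arrays of 6 h, and for HAS2, CHTOP, PRCC and MINDY1 1 of 2.

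Below 0 at 6 h, beside ACTA2 and CRYAB, stood CCL2, the chemokine that draws monocytes. It was at -0.40 and -0.18 at 0 h, at -1.09 and -0.43 at 6 h and at 0.91 and 1.69 at 24 h, so that both arrays of 24 h were above 0 and the 4 earlier ones below it. The difference of 24 h minus 6 h was 2.06 ± 0.29 with an adjusted p of 0.161, and no feature was called for that difference (0% of 7252; 843 features, 11.6%, had an unadjusted p under 0.05). ANXA1, a phospholipid-binding protein, stood at -1.99 and -0.67 at 6 h and at 0.46 and 0.11 at 24 h. The fatty acid synthase gene FASN was at -1.49 and -0.65 at 6 h, against 0.23 and 1.97 at 0 h. JUP had the lowest mean of these genes, -2.31, but its arrays of -4.49 and -0.12 lay far apart. EED, MRPL2, RPL37 and the pseudogene LOC783033 had means of -1.31, -0.86, -0.90 and -0.79. For JUP, EED and LOC783033 1 of 2 elements had both arrays of 6 h. No feature was called either when the 0 h ratio was subtracted from the 6 h ratio (0% of 7252; 818 features, 11.3%, had an unadjusted p under 0.05). The arrays of 6 h had the lowest quality weights of the 6 (1.26 at 0 h, 0.539 at 6 h and 1.49 at 24 h).

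Lists of genes are read below against all named genes, of which 58.6% were above 0 at 0 h, 57.2% at 6 h and 39.2% at 24 h, with medians of 0.0663, 0.088 and -0.121. A list that lay mostly below 0 at 24 h thus shared that with most named genes. The shares of all features given below also count the 6533 single elements. Of the 719 named genes alone, 77 were higher and 45 lower at 6 h by an unadjusted p under 0.05. At 24 h, 44 of the 719 were higher and 65 lower by that mark.

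The genes of glycolysis leaned upward in treated cells at 24 h. Of 15 measured, PFKFB3 was the 1 called higher at 24 h (0.0689% of all features were called higher), and 8 had an unadjusted p under 0.05 and a higher level, against 4.48% of all features; none was lower by that mark. These 8 were also above 0 on both arrays, as 22% of all named genes were. Aldolase A (ALDOA) was at 0.98 and 0.82, glucose phosphate isomerase (GPI) at 1.02 and 0.96, lactate dehydrogenase A (LDHA), which turns pyruvate into lactate, at 0.91 and 0.96, and pyruvate kinase (PKM) at 0.98 and 1.02. PKM alone of the 8 was below 0 on both arrays of 0 h (-0.85 and -1.11). GAPDH, TPI1 and ENO1, the rest of the 8, had means of 0.68, 0.85 and 0.63. The other 7 genes had means between -0.64 (PGK1) and 0.03 (SLC2A4), with PFKM, PGAM2 and ENO3 at -0.43, -0.03 and -0.16. The list median was 0.144 at 0 h, 0.292 at 6 h and 0.63 at 24 h, against medians at 24 h of -0.121 over all named genes and 0.029 over all features. At 6 h, 13 of the 15 were above 0 (57.2% of all named genes were), and PFKFB3 was the 1 with an unadjusted p under 0.05.

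Among the genes of the actin cytoskeleton and of smooth muscle, of which 22 were measured, ACTA2 was the 1 called lower at 24 h (0.0689% of all features were called lower), 5 had an unadjusted p under 0.05 and a lower level (4.78% of all features did) and none a higher one. The tropomyosins TPM1 and TPM2, which lie along actin filaments, stood at -0.75 and -0.76 and at -0.67 and -0.71. The regulatory myosin light chain MYL12A stood at -1.10 and -1.56, and beta-actin (ACTB) at -0.43 and -0.43. In all, 17 of the 22 were below 0 at 24 h, when 39.2% of all named genes were above 0, and the list median was 0.216 at 0 h, where 15 were above 0, -0.0933 at 6 h and -0.304 at 24 h (-0.121 over all named genes). At 6 h the list was mixed: PDLIM7, a scaffold of the actin cytoskeleton, stood at 1.21 and 0.74, and gamma-actin (ACTG1) at -0.91 and -0.82. Sarcomere and skeletal muscle genes had 26 of 30 below 0 at 24 h (median -0.286, against -0.121 over all named genes) and none called. Of the 30, 7 were below 0 on both arrays, a smaller share than the 28.8% of all named genes. Their 3 smallest p at 24 h belonged to ACTA1, ANKRD1 (-3.37 and -1.03) and TNNT1 (-1.77 and -0.13). At 6 h the 3 smallest belonged to the myogenic factors MYOG and MYF5, with means of 2.44 and 0.89, and to ATP2A1, with 0.37. For MYOG 0 of 4 elements had both arrays of 6 h, so that its 2 values came from different elements. For MYF5 1 of 2 elements had both.

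Of 20 measured genes of the matrix other than collagens, MGP was called lower at 24 h, 5 had an unadjusted p under 0.05 and a lower level (4.78% of all features did) and 2 a higher one (4.48%). Of these 20 genes 15 were below 0 at 24 h, with a median of -0.35 against -0.121 over all named genes, and the median was -0.0173 at 6 h. CCN2, a matricellular protein induced by growth factors in fibroblasts, stood at -1.90 and -2.80 at 24 h and at 1.17 and -2.61 at 6 h, so that the 6 h arrays opposed each other. The 2 higher genes were P4HB, a subunit of collagen prolyl hydroxylase (1.18 and 0.31), and OGN, a small leucine-rich proteoglycan (0.65 and 0.67). Among 7 collagens, 6 were below 0 on both arrays at 24 h, and 28.8% of all named genes were, but none was called and the means ran from -1.45 for COL5A3 and -0.51 for COL6A2 to 0.05 for COL4A1. For COL5A3 1 of 2 elements had both arrays of 24 h. COL3A1 and COL1A1, the chief fibrillar collagens with type I alpha 2, had means of -0.27 and -0.19.

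The insulin-like growth factor genes and DLK1, which is not one of them but was listed with them, differed in which members stood above 0 at each time. At 6 h, DLK1, IGFBP6 (2.18 and 0.96), IGF1 (1.55 and 2.32) and IGFBP5 (1.42 and 0.53) had unadjusted p under 0.05, which is 4 of 7 against 8.45% of all features higher by that mark. At 24 h, IGFBP5, IGFBP4 (2.72 and 2.13) and IGFBP3 (2.73 and 1.85) did, 3 of 7 against 4.48% of all features, while DLK1, IGFBP6, IGF1 and IGF2 had means between -0.31 and -0.12. IGFBP5 was thus the 1 member on both lists. The differences between 6 h and 24 h were not called for any of these genes. For DLK1 1 of 4 elements had both arrays of 6 h, and for IGFBP6 and IGF1 1 of 2. Of 8 genes of iron storage and redox defence, all had means above 0 at 6 h, as 57.2% of all named genes did (median 0.502, against 0.088), among them the metallothionein gene LOC327709 at 0.39 and 1.25, and SOD2 alone was called at 24 h (median 0.29, with PRDX5 at 0.38 and 0.22).

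None of the next lists held a called gene at 6 h or 24 h. Of 45 cytosolic ribosomal proteins, 33 were above 0 at 24 h, against 39.2% of all named genes, and 23 at 6 h, against 57.2%, with medians of 0.153 and 0.00525. Of 25 genes of the respiratory chain and ATP synthase, 4 at 6 h and 3 at 24 h had an unadjusted p under 0.05 and a higher level (8.45% and 4.48% of all features did), with COX5A and NDUFB8 among them at both times. Of 24 adipocyte and lipid genes the median was 0.18 at 6 h and 0.022 at 24 h. CEBPD, an early transcription factor of fat formation, had 24 h arrays of 3.30 and 0.68 (adjusted p = 0.618). Only 1 of its 2 elements had both arrays of 24 h. Among 9 heat shock proteins and chaperones CRYAB and HSPB8 (-1.37 and -0.38) had an unadjusted p under 0.05 and a lower level at 24 h, as 4.78% of all features did. Translation factors (10 measured), genes induced by glucocorticoids (4 measured) and immediate early genes (5 measured) had medians between -0.13 and 0.116 at both times. ZFP36L1, an RNA-binding protein, was above 0 on all 4 arrays, with means of 0.84 and 0.77.

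Markers of the labelled and of other cell types were measured as ratios only. All 6 stromal markers measured (DCN, VIM, COL3A1, COL1A1, ITGB1 and COL1A2) were below 0 on both arrays at 24 h (28.8% of all named genes were), with means from -0.54 to -0.05 and a median of -0.308 (-0.121 over all named genes), and none was called. At 6 h 4 of the 6 had means below 0 and the median was -0.107. Of these 6, COL3A1, COL1A1 and COL1A2 are also among the collagens above, DCN among the matrix genes and VIM among the actin cytoskeleton genes. Their values are thus not separate from those of these lists. Of the blood and immune markers, CTSS, a cathepsin of antigen-presenting cells, stood at -1.12 and -0.84 at 24 h, and CD74 at -2.53 and 1.25. Of the endothelial markers, EGFL7 stood at 1.99 and 1.76 at 6 h and at -1.89 and 0.01 at 24 h, and PLVAP at 0.13 and -0.32 at 6 h. With 6 of 19, 2 of 33 and 2 of 15 listed markers measured, a shift in the share of cell types was not tested, and fewer cells of a type and less RNA per cell cannot be told apart. Bone and cartilage genes (2 measured, MGP and SPP1) and interferon-induced genes (2 measured) were too thinly covered for a list value. So were cholesterol synthesis (FDFT1, 3.02 and 1.86 at 6 h) and the cell cycle (STMN1, 3.23 and 0.48 at 6 h). For STMN1 1 of 4 elements had both arrays of 6 h.

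**Figure D3:**
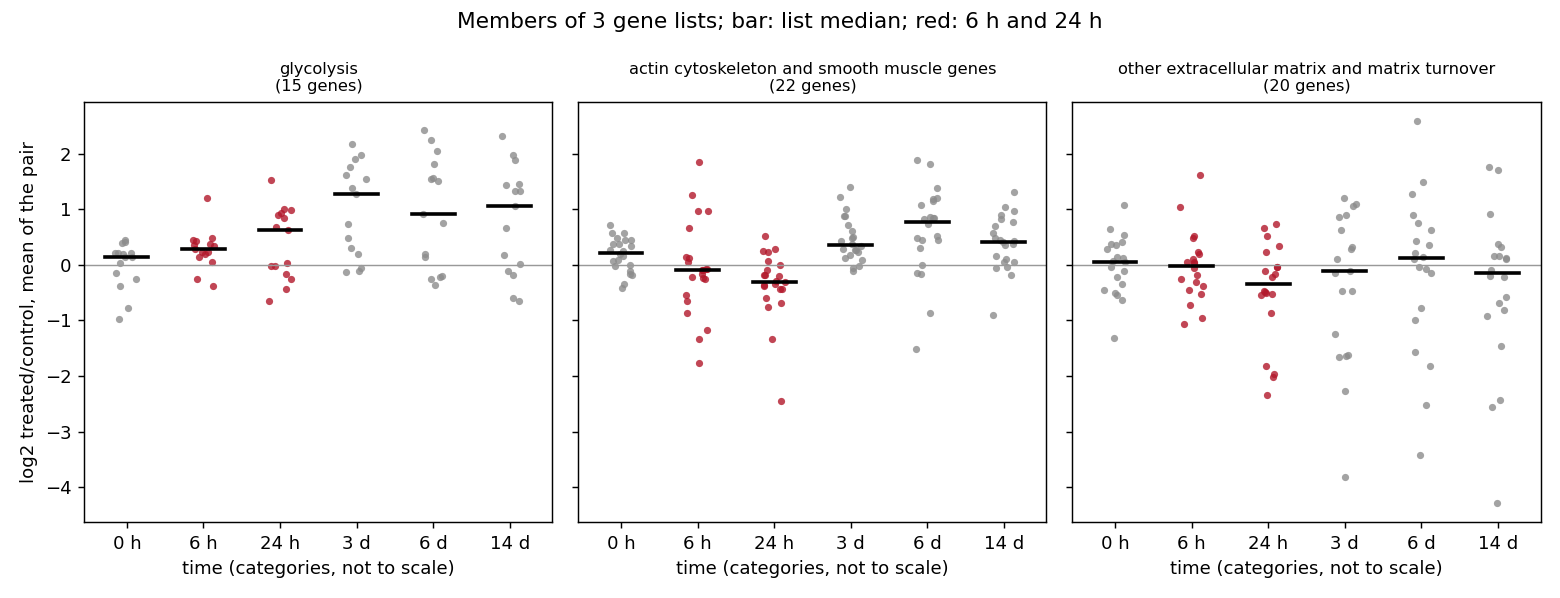
Mean log2 ratio of treated over control of the pair (vertical axis) for each measured member of 3 gene lists at 6 times (horizontal axis, categories not drawn to scale), with the list median as a bar. Points of 6 h and 24 h are red; the glycolysis median was 0.63 at 24 h and the actin cytoskeleton median -0.304, and at 14 d they were 1.06 and 0.419.

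The later arrays of treated against control stromal cells were set beside those of the first day. Under the same fit 2 of 7252 features were called at 6 h and 10 of 7252 at 24 h. At the later times 228 of 7034 were called at 3 d, 173 of 7237 at 6 d and 236 of 7250 at 14 d. An unadjusted p under 0.05 was held by 1130 features at 6 h, 672 at 24 h, 1291 at 3 d, 1086 at 6 d and 1091 at 14 d. The counts of calls are thus no measure of the size of the response. The mean of 6 h and 24 h was set against the mean of 3 d, 6 d and 14 d as a comparison chosen after the values were seen, and the genes named from it were chosen by that comparison. It called 155 of 7017 features (2.21%), 27 higher (0.385%) and 128 lower (1.82%) early than late, 24 of them named, and 15.8% had an unadjusted p under 0.05. The sign of each gene was taken from its early mean and its late mean. By these means 16 of these 24 genes kept their sign and were further from 0 late. The other 8 were below 0 early and above 0 late. Some of the 16, among them CCL2, MGP and CTSS, had a 6 h mean of the opposite sign to their early mean. Of the 8, TPM2 stood at 0.05 at 6 h, and the early mean of MGST3 was -0.02. The count rested on the 24 h arrays, since 1 feature stayed called without their replicate 1 and 18 without their replicate 2. It was 333 without replicate 2 of 6 h, and 47 to 129 without any other single array.

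ACTA2 was the named gene with the smallest p of that comparison. Its means were -1.17 at 6 h, -2.44 at 24 h, 0.88 at 3 d, 1.88 at 6 d and 1.31 at 14 d, with both arrays of every time on the same side of 0. The early minus late difference was -3.16 ± 0.16 (adjusted p = 0.00178). PI4KB, a lipid kinase of the Golgi, had the largest difference, -3.50 ± 0.37 (adjusted p = 0.00701), with early arrays of -0.71, -1.30, -0.93 and -1.60. Other actin genes and actin-binding genes had smaller differences of the same sign: early and late means were -0.33 and 0.99 for ACTB, -0.46 and 0.79 for TPM1, -0.32 and 0.66 for TPM2, -0.20 and 1.25 for CAP1, an actin-binding protein, and -0.59 and 0.89 for ACTA1. MGST3, a microsomal glutathione transferase, lay at -0.02 early and 1.05 late. Of the 22 actin cytoskeleton and smooth muscle genes 5 were called lower early than late, against 1.82% of all features, and 19 had a difference below 0, when 47.2% of all named genes had one above 0.

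Among the genes that kept their sign, SFRP4, IGFBP5 and PFKFB3 were already above 0 on all 4 arrays of 6 h and 24 h, with early means of 1.55, 1.51 and 1.36 and late means of 3.35, 3.22 and 2.21. The glycolytic genes LDHA, TPI1, ENO1, GAPDH and ALDOA had early means of 0.39 to 0.61 and late means of 1.47 to 2.10, and with PFKFB3 they made 6 of 15 glycolysis genes called lower early, against 1.82% of all features.

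MGP and elastin (ELN), the core protein of elastic fibres, were both lower over the mean of the later times than over the mean of 6 h and 24 h. MGP stood at 0.11 at 6 h, -1.96 at 24 h, -1.62 at 3 d, -1.82 at 6 d and -2.42 at 14 d, so that its 24 h mean lay within the range of the later times. ELN stood at -0.25 at 6 h and -0.52 at 24 h, against -2.27 at 3 d, -3.41 at 6 d and -4.28 at 14 d. The matrix protein MXRA8, the Fc receptor FCGRT and the cathepsins CTSK and CTSS had early means of -0.43 to -0.28 and late means of -1.70 to -1.38. CCL2 had means of -0.76 at 6 h, 1.30 at 24 h and 1.48 to 1.70 at the later times. SOD2 did not pass this test: its early means of 1.58 and 1.68 stood above 0.69, 0.75 and 1.22 at 3 d, 6 d and 14 d, with a difference of 0.74 and an adjusted p of 0.0895.

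**Figure D4:**
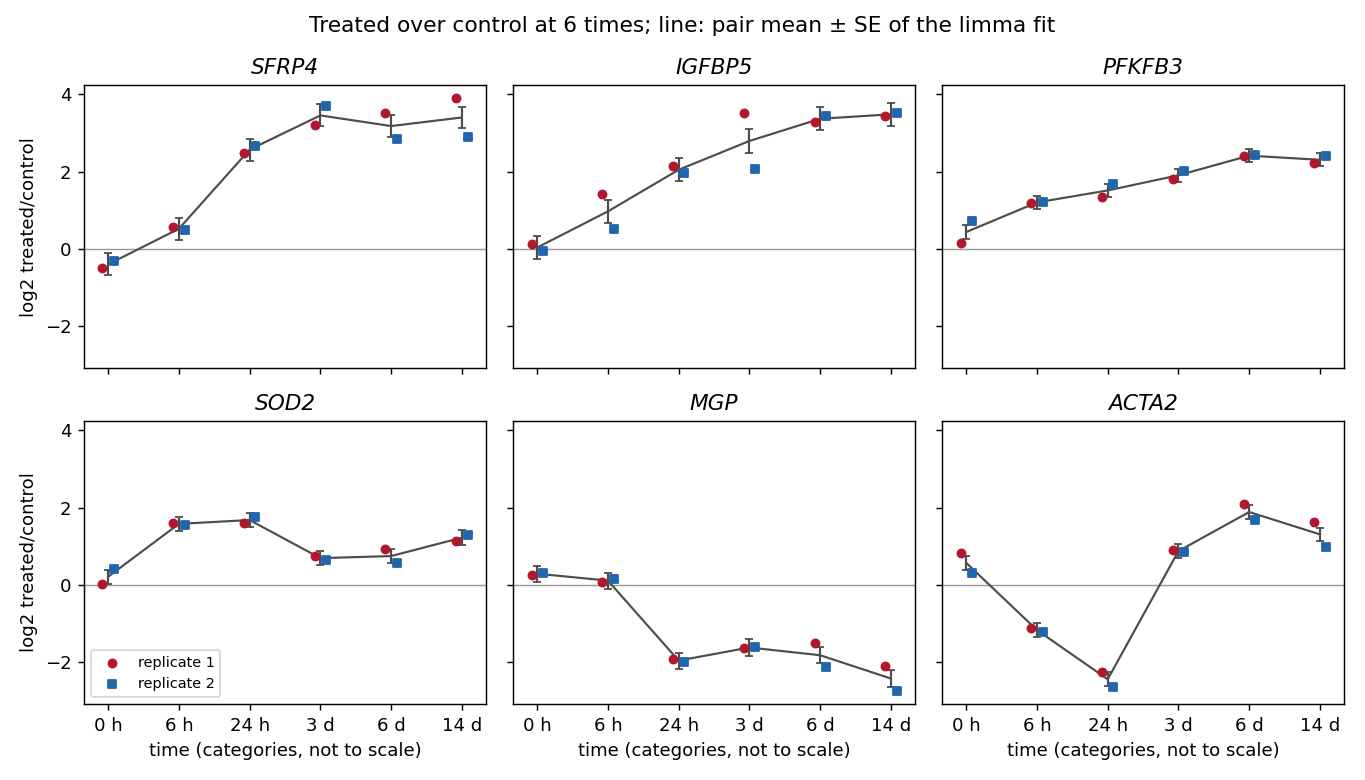
Log2 ratio of treated over control (vertical axis) at 6 times (horizontal axis, categories not drawn to scale) for SFRP4, IGFBP5, PFKFB3, SOD2, MGP and ACTA2. Points are single arrays and the line joins the pair means with the SE of the fit; ACTA2 crosses from -2.44 at 24 h to 0.88 at 3 d, while the other 5 genes stay on their 24 h side of 0 afterwards.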

How the data were processed

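RNA of bovine stromal cells was hybridised to 2-colour cDNA arrays. The authors deposited log2 ratios, taken here as Cy5 over Cy3; scanning, background correction, editing and normalization of these arrays are not given in the sources used here, and intensities were not used. Values at the ceiling of the deposited log2 table (16.61) were treated as absent. The median of every array was subtracted (-0.232 to 0.161 on the 6 early arrays), and elements annotated to a single gene were combined by their mean. Of 19200 elements 4304 have 1 name, 180 several and 14716 none in the platform annotation; 4286 of the 4304 identifiers were in the reference gene table. Features needed values on all 6 early arrays and on 10 of 12 arrays.

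Limma 3.58.1 in R 4.3.3 fitted 1 coefficient for each of 6 times, entered as plus for treated in Cy5 and minus for treated in Cy3, and a dye term, with 5 residual and 1.94 prior degrees of freedom; p-values were adjusted by Benjamini-Hochberg over all features, with a threshold of 0.05. Replicate 1 always held treated RNA in Cy5, so the dye term is also the replicate block; its deviations correlated over 0.1 for all 15 pairs of times. The method was tested on simulated data. A self-hybridisation and 2 other stromal arrays were left out; centring, filters, weights, the dye term and single arrays were varied, and the number of arrays limits the precision. Genes named were, at 6 h and 24 h, the 10 largest changes each way among called genes with the same sign on both arrays, filled by moderated t; called differences; the 3 smallest p of each gene list; and measured markers. Other genes in the text fall outside this rule and were picked with their values known, among them PI4KB, ELN, CCN2, LDHA, PKM and ACTB. The arrays and gene lists were chosen with earlier results of these data known.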

Additional observations from a re-analysis of the deposited data

Results flagged for a closer look

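A difference between times passed the adjusted threshold of the limma fit for ACTA2 when 0 h was subtracted from 24 h (-3.01, adjusted p = 0.049). The comparison of 6 h and 24 h with 3 d, 6 d and 14 d, chosen after the values were seen, called 24 named genes, given as log2 differences of early minus late. Those with a lower early ratio were PI4KB (-3.50), ACTA2 (-3.16), SFRP4 (-1.80), IGFBP5 (-1.70), LDHA (-1.49), ACTA1 (-1.48), CAP1 (-1.45), TPI1 (-1.40), CCL2 (-1.34), ACTB (-1.32), TPM1 (-1.24), the pseudogene LOC784938 (-1.21), ENO1 (-1.16), GAPDH (-1.10), MGST3 (-1.07), TPM2 (-0.98), ALDOA (-0.91) and PFKFB3 (-0.85). Those with a higher early ratio were MGP (1.03), MXRA8 (1.09), FCGRT (1.14), CTSK (1.15), CTSS (1.27) and ELN (2.93). Their adjusted p ran from 0.00178 for ACTA2 to 0.0486 for MGP. With 2 arrays at a time, single arrays that stand apart within a group could not be told from their pair.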

How the results depend on the processing

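The count of calls at 24 h moved with most settings: 10 as reported, 6 without centring of the arrays, 2 with equal spread, with ratios at the limit kept, with values needed on the 6 early arrays only, without the replicate block (no dye term) or with adjacent elements averaged, 57 with values on all 12 arrays, 250 with every element a feature, 48 with the self-hybridisation, 168 with array weights, 39 with the median over elements, and 0 with the 6 early arrays alone or without the arrays of 6 h and 3 d. At 6 h, 2 were called as reported, 1 without centring or with robust moderation, 0 with equal spread, ratios at the limit, the early arrays alone or array weights, 10 with values on all 12 arrays, 7 with the self-hybridisation, 5 with adjacent elements averaged and 4 without the replicate block. For 24 h minus 0 h, 1 was called as reported, 0 without centring, with ratios at the limit, values on the early arrays, no replicate block, the early arrays alone, robust moderation, adjacent elements averaged or no arrays of 6 h and 3 d, 5 with equal spread, 85 with every element, 3 with the self-hybridisation and 13 with array weights. Early minus late called 155 as reported, 77 with equal spread, 497 with every element, 44 without the replicate block and 81 with adjacent elements averaged. The cause of these moves was not tested. At 6 h the 1 call without centring was higher and the 1 under robust moderation lower, against 1 each way as reported. At 24 h, 2 were higher and 4 lower without centring, and 2 higher and 0 lower with equal spread.

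Leaving out each array in turn gave 0 to 3 calls at 24 h, 0 to 412 at 6 h, 0 to 287 for 24 h minus 6 h, 0 to 243 for 6 h minus 0 h, 0 for 24 h minus 0 h, 0 at 0 h and 1 to 333 for early minus late; the highest count of 4 of these came without replicate 2 of 6 h, when the lone array was assumed to vary like the others. Over 25 alternatives ACTA2 at 24 h ranged from -2.77 to -2.37, MGP from -2.20 to -1.88, SFRP4 from 2.37 to 2.90, SOD2 from 1.59 to 1.89 and PFKFB3 from 1.46 to 1.73, called in 12, 3, 7, 5 and 5 of them, with adjusted p from 0.00365 to 0.463. The median of glycolysis at 24 h stayed between 0.474 and 0.946 and that of the actin cytoskeleton between -0.389 and -0.199. Adjacent elements, which are duplicate prints where annotated, correlated at 0.263 to 0.418 on the 6 arrays.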
